A study of Rattus norvegicus with 12 samples.

Results

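Hepcidin, the product of Hamp, is the liver hormone that lowers iron in blood by causing the breakdown of ferroportin, the iron exporter encoded by Slc40a1. The probe sets described here read 8 genes of this circuit, out of 14217 genes named on the array. The circuit comprises the hormone (Hamp), the ligands that induce it (Bmp2 and Bmp6), a direct target of the same signal (Id1), the iron sensors (Hfe and Tfr2), the iron uptake receptor (Tfrc) and the exporter (Slc40a1). They were chosen from a list of 10 symbols, by taking every probe set that the platform annotation maps to a listed symbol alone. Tf (transferrin) and Fth1 (ferritin heavy chain) dropped out because their probe sets carry a further gene symbol, so they were not analysed here. The remaining genes had 15 probe sets, of which 12 reached the signal filter of 19.67 and 3, all of Bmp6, lay under it.

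RNA of whole liver was read on 12 Affymetrix arrays, 1 array per rat and 3 rats in each of 4 groups. They comprised Sprague Dawley rats kept germ-free, that is reared without microbes, conventional (not germ-free) Sprague Dawley rats, Han Wistar rats given antibiotic for 8 days, and untreated Han Wistar rats. The antibiotic was streptomycin with penicillin in the drinking water, listed at 4 mg/ml and 2 mg/ml without saying whether this is the stock or the water as drunk. The labels give no age, sex, diet or hour of tissue collection, and strain and experiment cannot be told apart, so each treated group was set only against the control of its own strain. Values are linear MAS5 signals, fold changes were taken on log2(signal + 16), and adjusted p-values come from limma over all 9300 genes tested. The number of arrays limits the precision. All 6 hepatocyte markers looked for were measured, with a summed signal of 34510 to 50190 in germ-free and antibiotic-treated livers and 26080 to 45560 in conventional and untreated livers.

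In hepatocytes, BMP ligands bind receptor pairs with the help of the co-receptor hemojuvelin (Hjv), and the receptors phosphorylate SMAD1 and SMAD5, which enter the nucleus with SMAD4 and switch on Hamp, Id1 and the inhibitory SMADs. In mice, BMP2 and BMP6 for this signal come mainly from the sinusoidal endothelium, and BMP6 rises with liver iron. Hfe and Tfr2 relay the amount of iron-loaded transferrin to the same pathway, while interleukin-6 acts on Hamp through STAT3.

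In germ-free livers the ligand Bmp2 rose and the target Id1 fell, while Hamp itself showed no change past the test. Of the 8 genes, 1 rose, 1 fell and 6 did not pass. Over all genes tested, 6.44% rose, 6.74% fell and 13.2% passed in either direction. The median log2 fold change of the 8 was 0.15, against 0.02 over all genes tested. In antibiotic-treated livers 0 of the 8 passed limma's test, where 0.0215% of all genes did, and 1 of them, Id1, had an unadjusted p under 0.05, where 10.4% of all genes did. Their median log2 fold change there was 0.17, against 0.00 over all genes.

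**Figure D1:**
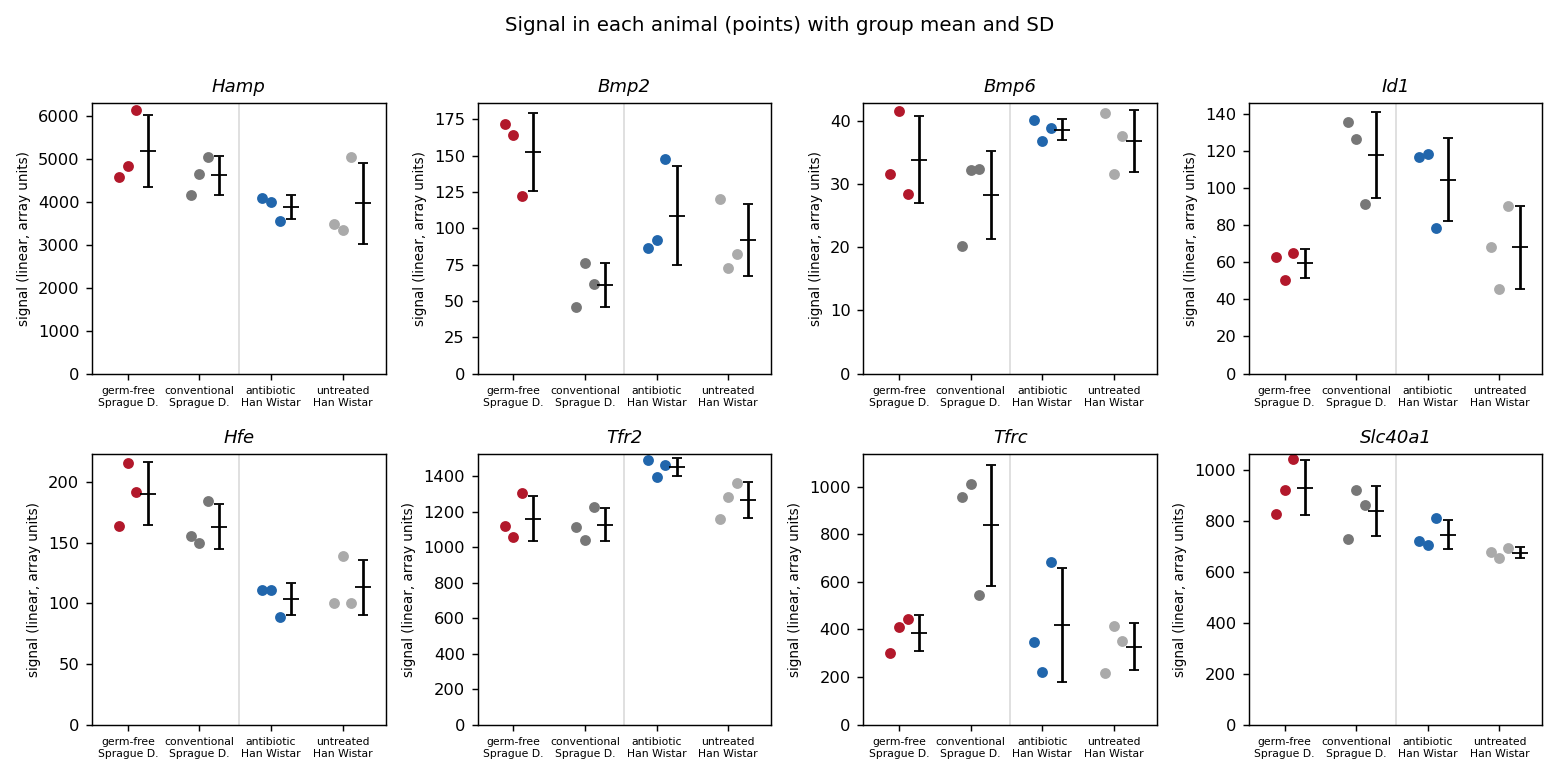
Signal (linear, array units, axes from 0) of the brightest probe set of each of the 8 genes in every animal, with group mean and SD beside the points, in germ-free and conventional Sprague Dawley and antibiotic-treated and untreated Han Wistar rats. Germ-free animals lie above all conventional animals for Bmp2 and below all of them for Id1 and Tfrc, while the groups overlap for Hamp. Germ-free and conventional groups did not overlap for 29.9% of all genes.

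Hamp was a strongly hybridising transcript in every animal. Its signal was 4582, 4848 and 6150 in germ-free livers, against 4153, 4665 and 5056 in conventional livers. It was 4098, 4005 and 3559 in antibiotic-treated livers, against 3496, 3354 and 5057 in untreated livers. The groups overlapped in both comparisons, and all 12 animals stayed within 1.83-fold of each other. The log2 fold change was 0.16 ± 0.15 (SE; 95% confidence interval -0.17 to 0.49; adjusted p = 0.531, limma) in germ-free and -0.01 ± 0.15 (-0.33 to 0.32; adjusted p = 0.995) in antibiotic-treated livers. These intervals leave room for a fold change between 0.891 and 1.40 in germ-free livers and between 0.794 and 1.25 in antibiotic-treated livers. The difference between the comparisons was 0.17 ± 0.21 (adjusted p = 0.713). After quantile normalization the log2 fold change was 0.06 (adjusted p = 0.814) in germ-free and -0.27 (adjusted p = 0.535) in antibiotic-treated livers, with a difference of 0.32 (adjusted p = 0.330).

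The stretches before the start sites of 3 genes that BMP signalling switches on are shown because their levels went different ways in germ-free livers: Hamp did not pass, Id1 fell and Smad7, an inhibitory SMAD described below, rose. They come from RefSeq (build GRCr8), 5′ to 3′ on the strand of the gene. They end before the first annotated start, which leaves 211 bases for Id1 and 250 for the others, and capitals mark matches to GGCGCC, the core of the BMP-responsive element of Hamp, or TTCNNNGAA, the STAT site.
Hamp, chr1:95300272-95300521, minus strand: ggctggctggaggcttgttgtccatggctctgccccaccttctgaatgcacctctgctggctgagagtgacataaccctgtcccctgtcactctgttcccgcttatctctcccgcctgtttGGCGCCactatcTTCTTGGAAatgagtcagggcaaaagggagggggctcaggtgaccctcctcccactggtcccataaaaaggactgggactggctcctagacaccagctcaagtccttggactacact
Id1, chr3:161671314-161671524, plus strand: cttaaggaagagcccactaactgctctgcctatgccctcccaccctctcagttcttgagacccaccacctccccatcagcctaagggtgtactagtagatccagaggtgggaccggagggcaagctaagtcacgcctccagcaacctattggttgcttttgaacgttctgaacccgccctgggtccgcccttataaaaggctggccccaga
Smad7, chr18:71263258-71263507, plus strand: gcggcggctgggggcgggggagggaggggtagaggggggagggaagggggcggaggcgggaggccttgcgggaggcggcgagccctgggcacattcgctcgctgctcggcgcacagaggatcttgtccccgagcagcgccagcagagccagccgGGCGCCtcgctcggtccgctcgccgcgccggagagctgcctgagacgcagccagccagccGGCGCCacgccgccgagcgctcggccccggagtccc
In the 250 bases before the Hamp start, GGCGCC began at base 129 and TTCTTGGAA at base 117 before the start, and the matches did not overlap. Both motifs read the same on either strand. GGCGCC was found in 8.69% and TTCNNNGAA in 7.67% of 33469 rat promoter windows, all searched over 250 bases before the start, and both together in 0.379%. The Smad7 window held GGCGCC at bases 96 and 36 before the start, and all 250 bases searched for Id1, the printed stretch included, held neither motif. Of 7 listed genes with a promoter in the table, 2 held GGCGCC (Hamp and Tfrc) and 1 held TTCNNNGAA (Hamp). The palindrome GTCTAGAC, a SMAD-binding sequence, was in 0 of the 7 and in 0.173% of all windows. A match describes letters in the window and does not show binding. Sequence further before the start was not searched, so elements there would be missed. Any link between these motifs and the changes in level was not tested.

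Bmp2, the endothelial ligand, rose in germ-free livers on both of its probe sets. The brighter one read 172, 164 and 122 in germ-free livers, against 45.6, 76.1 and 61.8 in conventional livers. On this probe set every germ-free animal lay above every conventional one (29.9% of all genes had groups that did not overlap). Its log2 fold change was 1.13 ± 0.21 (95% confidence interval 0.68 to 1.59; adjusted p = 0.00344, limma). The other probe set averaged 55.5 ± 6.15 in germ-free livers and 20.6 ± 4.23 in conventional ones (SD, n = 3 per group). In a fit of every probe set, where 4.98% passed, its log2 fold change was 0.97 ± 0.22 (adjusted p = 0.0208, limma). Of 8 markers of endothelium, the main source of this ligand in mice, 7 rose in the same livers, where 6.44% of all genes did. In whole liver, more cells of a type and more RNA per cell cannot be told apart. In Han Wistar rats the brighter probe set read 86.6, 92.0 and 147.8 in antibiotic-treated livers, against 120.1, 72.8 and 82.7 in untreated livers. These groups overlapped (log2 fold change 0.20 ± 0.21, adjusted p = 0.808). The difference between the comparisons, 0.93 ± 0.30, did not pass (adjusted p = 0.0861), although it did without antibiotic animal 15 (0.038).

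Bmp6, the iron-regulated ligand, lay close to the signal filter. Its brightest probe set read 31.6, 41.6 and 28.4 in germ-free livers, against 20.2, 32.2 and 32.4 in conventional livers, and 40.1, 36.8 and 38.9 in antibiotic-treated livers, against 41.3, 31.6 and 37.7 in untreated livers. The groups overlapped in both comparisons. The log2 fold changes were 0.18 ± 0.15 (adjusted p = 0.487, limma) and 0.05 ± 0.15 (adjusted p = 0.957). The other 3 probe sets averaged between 6.03 and 18.5 over all animals and had germ-free log2 fold changes of 0.08 to 0.38, none past the test.

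Id1, which encodes an inhibitor of basic helix-loop-helix factors and is a standard readout of BMP signalling, moved against its ligand Bmp2. Its signal was 62.5, 50.5 and 64.9 in germ-free livers, against 135.4, 126.1 and 91.3 in conventional livers. The groups did not overlap, as for 29.9% of all genes. The log2 fold change was -0.82 ± 0.20 (95% confidence interval -1.25 to -0.38, adjusted p = 0.0167, limma). The change missed the threshold when germ-free animal 3 (adjusted p = 0.0756), conventional animal 6 (0.0583) or conventional animal 7 (0.0567) was left out, and with the actin 3′ to 5′ ratio, a measure of RNA quality, as a covariate (0.0602; log2 fold change -0.88). That ratio averaged 4.39 ± 0.762 (SD, n = 3) in germ-free livers and 5.37 ± 0.839 (n = 3) in conventional ones. It averaged 2.73 ± 0.131 in antibiotic-treated and 2.55 ± 0.123 in untreated livers (n = 3 each), so the ratio also differed along strain and experiment. Its part in the fall of Id1 was not tested beyond that fit.

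In antibiotic-treated livers Id1 read 116.5, 118.0 and 78.5, against 68.0, 45.7 and 90.3 in untreated livers. Animals 13 and 14 lay above all untreated animals, and animal 15 lay below untreated animal 3. The log2 fold change of 0.54 ± 0.20 did not pass (unadjusted p = 0.0191, adjusted p = 0.372, limma). The changes in the 2 comparisons differed by -1.35 ± 0.29 (95% confidence interval -1.97 to -0.74; adjusted p = 0.0142, limma), a difference that passed for 5.94% of all genes. Id1 was the only one of the 8 genes for which this difference passed. With 1 animal at a time left out, it lay between -1.54 and -1.15, and with the actin ratio as a covariate it missed the threshold (-1.44, adjusted p = 0.0537).

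Of the iron sensors, Hfe read 163.9, 216.1 and 192.1 in germ-free livers, against 155.4, 150.2 and 184.4 in conventional livers. It read 111.5, 111.3 and 88.6 in antibiotic-treated livers, against 100.4, 139.5 and 100 in untreated livers. Both pairs of groups overlapped, with log2 fold changes of 0.20 ± 0.15 (adjusted p = 0.397) and -0.10 ± 0.15 (adjusted p = 0.870, limma). Every Sprague Dawley animal lay above every Han Wistar animal in Hfe signal, as in the actin ratio. Strain, experiment and RNA quality cannot be told apart in this gap.

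Tfr2, the transferrin receptor of the sensing complex, read 1119, 1057 and 1303 in germ-free livers, against 1113, 1042 and 1226 in conventional livers. It read 1492, 1396 and 1465 in antibiotic-treated livers, against 1157, 1282 and 1361 in untreated livers. Groups overlapped in the first comparison and stood apart in the second, where 18.3% of all genes had groups that did not overlap. The log2 fold changes were 0.04 ± 0.10 (95% confidence interval -0.18 to 0.26) and 0.20 ± 0.10 (-0.03 to 0.42; adjusted p = 0.539, limma).

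Tfrc, the receptor that takes up transferrin-bound iron and whose mRNA is kept stable by iron regulatory proteins when iron is scarce, had the widest spread of the 8 genes, 4.63-fold between its highest and lowest animal. Its brighter probe set read 300.7, 411.7 and 445.2 in germ-free livers, against 956.3, 1009 and 546.4 in conventional livers. The groups did not overlap, as for 29.9% of all genes. The log2 fold change of -1.05 ± 0.34 just missed the threshold (adjusted p = 0.0566, limma), with an unadjusted p of 0.00805 where 28.1% of all genes had one under 0.05. It passed without conventional animal 8 (adjusted p = 0.0318) or antibiotic animal 14 (0.0314) or 15 (0.021), and when only the 6 Sprague Dawley arrays were fitted (0.0189). In the other 16 of 20 alternatives it did not pass. Among these were the actin ratio as a covariate (adjusted p = 0.201) and leaving out conventional animal 7 (0.167) or germ-free animal 1 (0.148). The other probe set read 68.1, 92.3 and 127.9 in germ-free livers, against 208.3, 191.3 and 121.4 in conventional livers (log2 fold change -0.76 ± 0.32, adjusted p = 0.213). In Han Wistar rats the brighter probe set read 347.6, 219.7 and 683.8 in antibiotic-treated livers, against 217.8, 413.2 and 349.9 in untreated livers. Animal 15 was the high one on both probe sets, and the log2 fold change was 0.24 ± 0.34 (adjusted p = 0.871).

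Slc40a1, the exporter ferroportin, is expressed in liver macrophages as well as in hepatocytes. Its brightest probe set read 825.7, 923 and 1043 in germ-free livers, against 729, 921 and 864.1 in conventional livers, and the groups overlapped (log2 fold change 0.15 ± 0.11, adjusted p = 0.417, limma). It read 719.4, 706.2 and 812.7 in antibiotic-treated livers, against 679.8, 654.2 and 693.5 in untreated livers. These groups stood apart by a narrow gap, as for 18.3% of all genes. The log2 fold change was 0.14 ± 0.11 (adjusted p = 0.735). The other 2 probe sets had germ-free log2 fold changes of 0.44 ± 0.15 (adjusted p = 0.118, limma) and 0.37 ± 0.20 (adjusted p = 0.350), so that all 3 were above 0 and none passed. In antibiotic-treated livers these 2 probe sets overlapped with untreated livers and differed in sign. Their log2 fold changes were 0.07 ± 0.15 (adjusted p = 0.97, limma) and -0.18 ± 0.20 (adjusted p = 0.913).

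**Figure D2:**
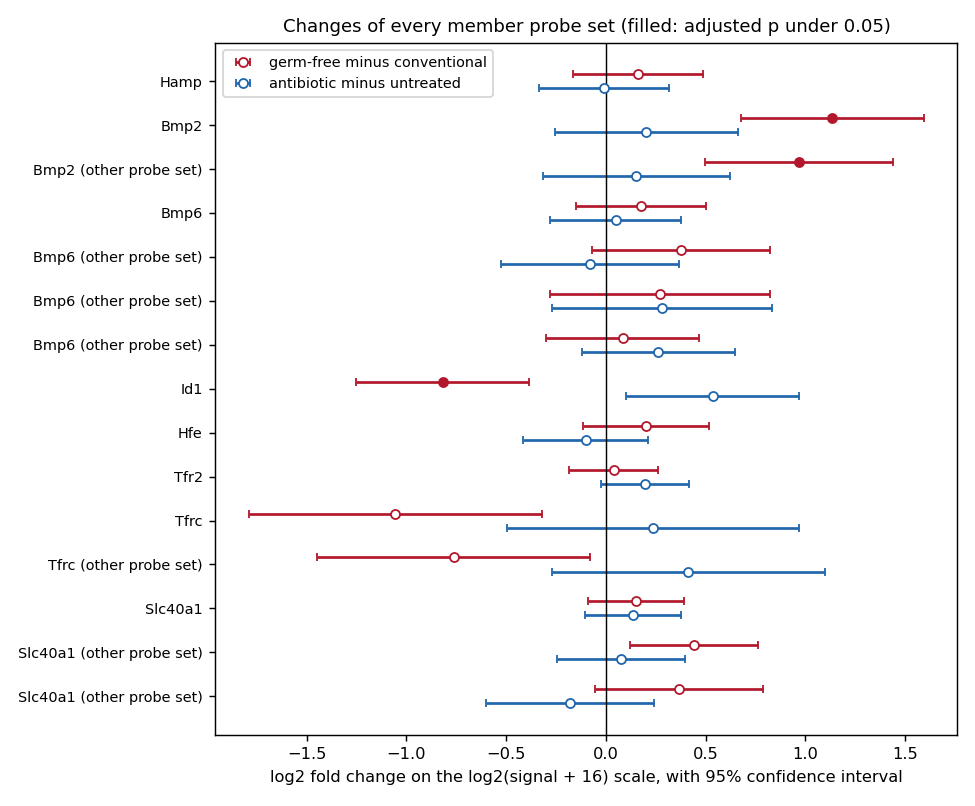
Log2 fold change on the log2(signal + 16) scale, with 95% confidence interval, of each of the 15 probe sets in germ-free minus conventional (red, drawn above) and antibiotic minus untreated livers (blue). Filled points passed at an adjusted p under 0.05, which only both Bmp2 probe sets and Id1 did, in germ-free livers.

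Ordered by group mean, germ-free livers were highest for Hamp, Bmp2, Hfe and Slc40a1, conventional livers for Id1 and Tfrc, and antibiotic-treated livers for Bmp6 and Tfr2. Neighbouring groups in that order overlapped for every gene except at 3 steps. These were between conventional and untreated livers for Hfe, antibiotic-treated and untreated for Tfr2, and antibiotic-treated and untreated for Slc40a1. Antibiotic-treated and untreated groups did not overlap for 18.3% of all genes. The Hfe step crosses strain and experiment, and a share over all genes was not taken for it. Over all 4 groups, and so across strain and experiment, the largest group mean exceeded the smallest by 2.56-fold for Tfrc, 2.50-fold for Bmp2 and 1.98-fold for Id1, and by 1.29-fold to 1.84-fold for the other 5 genes.

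Further genes of BMP and SMAD signalling rose in germ-free livers and none fell. Of 22 listed genes 17 were tested, and 5 rose, 0 fell and 12 missed the threshold (median 0.34 on the log2 scale, against 0.02 over all genes). Over all genes 6.44% rose. In the same livers 7 of 8 endothelial markers rose (median 0.90), Eng being in both lists, and the part of endothelial content in these levels was not tested. Smad6, an inhibitory SMAD, read 40.1, 46.7 and 46.0 in germ-free livers, against 28.1, 21.0 and 21.5 in conventional livers (log2 fold change 0.61 ± 0.13, adjusted p = 0.00734, limma). Smad7, the other inhibitory SMAD, averaged 113.7 ± 18.9 in germ-free livers and 64.8 ± 10.5 in conventional ones (SD, n = 3 per group; 0.68 ± 0.15, adjusted p = 0.0093). The type II receptor gene Bmpr2 averaged 111 ± 26.7 against 59.8 ± 7.15 in the same groups (0.73 ± 0.17, adjusted p = 0.0137). Both inhibitory SMADs have dimmer probe sets that did not pass, with germ-free log2 fold changes of 0.04 to 0.16 for Smad6 and of -0.09 and 0.21 for Smad7.

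Targets of the pathway did not move as one. Id4, a relative of Id1, averaged 1260 ± 75.7 in germ-free livers and 829 ± 71.1 in conventional ones (SD, n = 3 per group), a log2 fold change of 0.60 ± 0.13 (adjusted p = 0.007, limma), the opposite direction to Id1. Of its other 3 probe sets, 2 passed in the fit of every probe set (0.67 and 0.87, adjusted p = 0.00735 and 0.00565) and 1 did not (0.58, adjusted p = 0.159). Id2 (-0.08) and Id3 (-0.15) did not pass. Eng, an endothelial co-receptor of the family, rose by 0.89 ± 0.12 (adjusted p = 0.000358). The signal carriers Smad1 (0.00), Smad5 (-0.06) and Smad4 (0.07), the co-receptor gene Hjv (-0.12) and the receptor genes Bmpr1a (-0.04) and Acvr1 (0.34) did not pass, nor did Neo1, which binds hemojuvelin (0.36, adjusted p = 0.077). With the actin ratio as a covariate, Id4 (0.56, adjusted p = 0.0572) and Smad6 (0.49, adjusted p = 0.0838) missed the threshold, as did Bmpr2 without conventional animal 7 (0.66, adjusted p = 0.053). In both of these fits Bambi, which encodes a decoy receptor, passed in addition.

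In antibiotic-treated livers 0 of the 17 passed limma's test, and 2 had an unadjusted p under 0.05, where 10.4% of all genes did. Smad6 read 46.9, 47.0 and 38.1 in antibiotic-treated livers, against 60.2, 64.2 and 51.7 in untreated livers, groups that stood apart (log2 fold change -0.32 ± 0.13; adjusted p = 0.424, limma). Its next brightest probe set, with a mean signal of 27.7, went the other way in the fit of every probe set (0.38 ± 0.15, adjusted p = 0.591). Id4 had a log2 fold change of -0.37 (adjusted p = 0.316) and Hjv of 0.29 (adjusted p = 0.488). The difference between the comparisons passed for Smad6 (0.93, adjusted p = 0.00997), Id4 (0.97, adjusted p = 0.00629) and Eng (0.93, adjusted p = 0.00618). On that other Smad6 probe set the difference had the opposite sign and did not pass (-0.22 ± 0.21, adjusted p = 0.719).

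**Figure D3:**
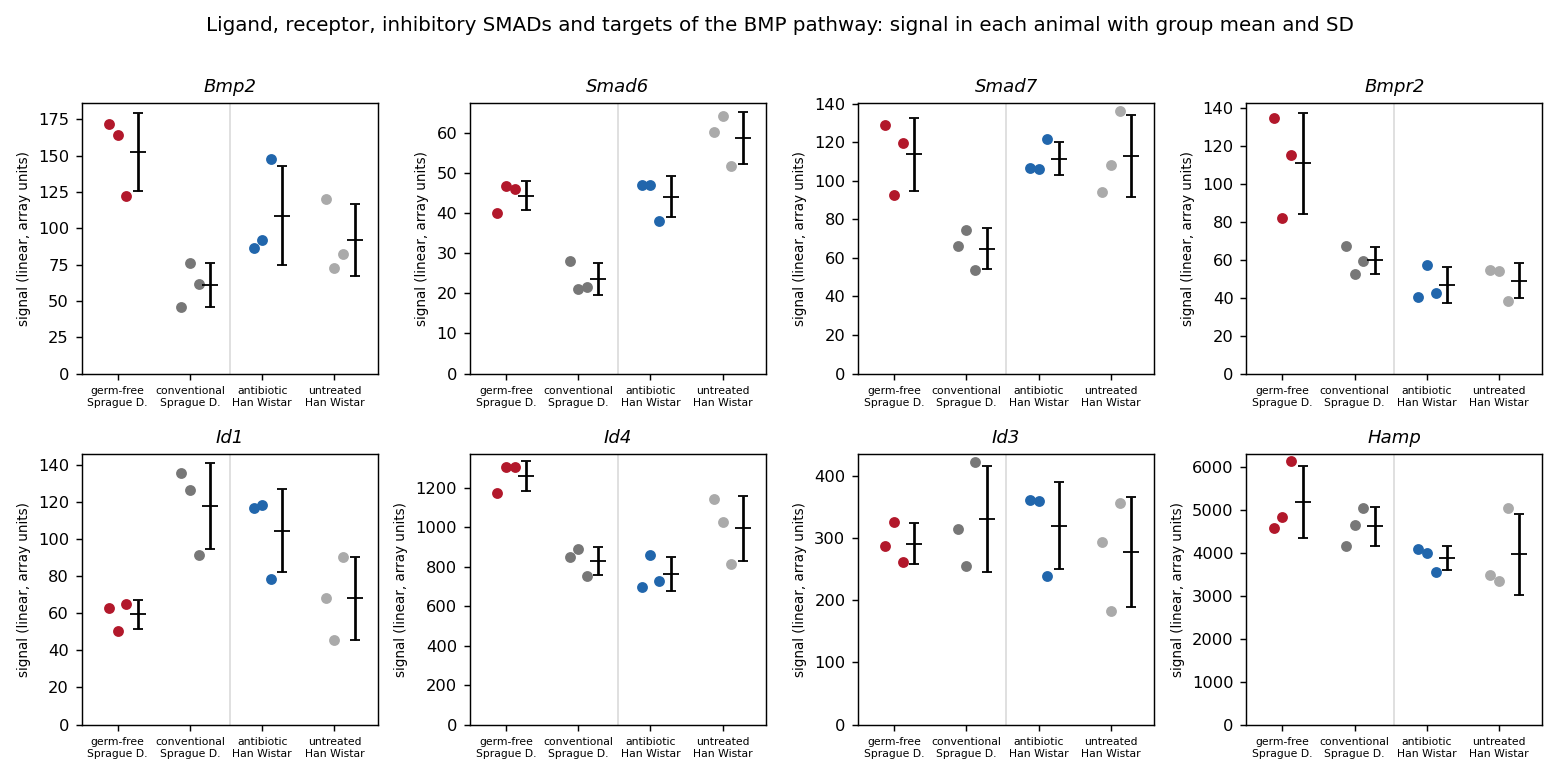
Signal (linear, array units, axes from 0) in every animal, with group mean and SD, of the ligand Bmp2, the inhibitory SMADs, the receptor gene Bmpr2, 3 Id genes and Hamp. In germ-free livers Bmp2, Smad6, Smad7, Bmpr2 and Id4 lie above all conventional animals and Id1 below them, while Id3 and Hamp overlap. Germ-free and conventional groups did not overlap for 29.9% of all genes.

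Genes of inflammation, among them those through which interleukin-6 acts on Hamp, passed about as often as all genes (13.2%). Of 10 listed genes 7 were tested, and in germ-free livers 1 rose, 0 fell and 6 missed the threshold (median -0.08 on the log2 scale). The gene that rose was Il6r, the interleukin-6 receptor, with 546, 549 and 634 in germ-free livers, against 218, 376 and 349 in conventional livers (0.87 ± 0.20, adjusted p = 0.00988, limma). Stat3 (-0.35), Socs3 (0.23), Jak2 (-0.11), Crp (0.24) and Lcn2 (-0.29) did not pass. Conventional animal 6 carried most of the Lcn2 signal of its group, 130.6, against 45.2 and 17.5 in the others, and without it the log2 fold change was 0.28. In antibiotic-treated livers 0 of the 7 passed limma's test, and 0 had an unadjusted p under 0.05, with Crp at 0.28, Jak2 at 0.22 and Il6st, the shared signal-transducing receptor, at -0.21.

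Genes of iron transport, storage and heme handling also passed about as often as all genes (13.2%), in both directions. Of 33 listed genes 29 were tested, and in germ-free livers 1 rose, 3 fell and 25 missed the threshold (median 0.02 on the log2 scale). Aco1, which encodes the cytosolic aconitase that doubles as iron regulatory protein 1, read 688, 615 and 698 in germ-free livers, against 1170, 1073 and 947 in conventional livers (log2 fold change -0.66 ± 0.11, adjusted p = 0.00214, limma). Blvrb, biliverdin reductase B, averaged 192.2 ± 30.1 in germ-free livers and 398.9 ± 108.7 in conventional ones (SD, n = 3 per group; -0.97 ± 0.17, adjusted p = 0.00245). Fech, the enzyme that inserts iron into heme, fell by 0.54 on the log2 scale (adjusted p = 0.012), and missed the threshold with germ-free animal 3 left out (log2 fold change -0.52, adjusted p = 0.0519) or the actin ratio as a covariate (-0.44, adjusted p = 0.11). Slc46a1, a transporter of folate and heme, rose by 0.69 ± 0.17 (adjusted p = 0.0171). It missed the threshold with germ-free animal 1 (0.51, adjusted p = 0.0576) or conventional animal 7 (0.55, adjusted p = 0.0719) left out, and with the actin ratio as a covariate (0.71, adjusted p = 0.0728). Ireb2, which encodes iron regulatory protein 2 (0.07), the importer gene Slc11a2 (-0.10), the heme oxygenase gene Hmox1 (0.02), Hpx (0.27, adjusted p = 0.0871) and Slc25a37 (-0.45) did not pass.

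In antibiotic-treated livers 0 of the 29 passed limma's test, and 6 had an unadjusted p under 0.05, where 10.4% of all genes did. The plasma protein genes Hpx, Hp and Cp, which bind heme, hemoglobin and copper, had log2 fold changes of 0.41, 0.38 and 0.31 (adjusted p = 0.177, 0.249 and 0.351, limma). After quantile normalization these were 0.01, -0.02 and 0.03. Dimmer probe sets of Cp had log2 fold changes of 0.23 ± 0.12 (mean signal 4296) and -0.02 ± 0.11 (mean signal 523). Neither passed in the fit of every probe set. All 6 hepatocyte markers tested lay higher in all antibiotic-treated than in all untreated animals, with 0 past limma's test and 6 at an unadjusted p under 0.05 (median log2 fold change 0.39). Over all genes in this comparison, 18.3% had groups that did not overlap and 10.4% had an unadjusted p under 0.05.

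Bmp2 moved together with endothelial markers. Of 8 endothelial markers tested, 7 rose in germ-free livers, 0 fell and 1, Pecam1 (0.19), did not pass. Over all genes 6.44% rose. The median log2 fold change of the markers was 0.90, beside 1.13 for Bmp2. Their summed signal ran from 1606 to 2114 in germ-free and from 867 to 1056 in conventional livers. Stab2, a scavenger receptor of sinusoidal endothelium, rose by 1.17 ± 0.23 and Lyve1 by 1.09 ± 0.24 (adjusted p = 0.0049 and 0.00807, limma). Kdr missed the threshold, which left 6, when germ-free animal 1 or 3 was left out, when any 1 of the conventional animals was, and with the actin ratio as a covariate. It also missed the threshold with no filter and in the fit of every probe set. Under the 75th percentile filter 5 markers were called, with Emcn and Stab1 no longer among them. The part of endothelial content in the rise of Bmp2 was not tested. In antibiotic-treated livers 0 of the 8 passed limma's test, 0 had an unadjusted p under 0.05 (median 0.16), and their sums overlapped, 1527 to 2000 against 1227 to 2209 in untreated livers.

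Macrophage markers, of which 7 were tested, are set beside Id1 and Slc40a1. In germ-free livers 1 fell, the Kupffer cell lectin Clec4f (log2 fold change -0.64 ± 0.17, adjusted p = 0.0264, limma), and 6 did not pass (median -0.08). Over all genes 6.74% fell and 13.2% passed in either direction. The macrophage count was 0 when any of 4 animals (numbers 1 and 4 of the germ-free rats, 7 and 8 of the conventional ones) was left out. It was also 0 with the actin ratio as a covariate and in the fit of every probe set. In antibiotic-treated livers all 7 had log2 fold changes above 0 (median 0.56). Of these, 5 had an unadjusted p under 0.05, where 10.4% of all genes did, and 0 passed limma's test. Their summed signal ran from 1540 to 2012 in germ-free and 1920 to 2656 in conventional livers, and from 1679 to 2499 in antibiotic-treated and 1206 to 1676 in untreated livers. The part of macrophage content in the levels of Id1 or Slc40a1 was not tested. Of 4 red cell markers tested 1, Slc4a1 (-0.69, adjusted p = 0.0317), fell in germ-free livers, where 6.74% of all genes did. The others, Hbb (0.26), Alas2 (0.39) and Ahsp (-0.23), did not pass, and the median of the 4 was 0.02. The stellate (6 tested) and bile duct (3 tested) lists had 0 that passed limma's test in either comparison. In germ-free livers 1 stellate marker had an unadjusted p under 0.05, where 28.1% of all genes did. Of 7 lymphocyte markers 5 lay under the signal filter and 2 were not analysed here. No marker tested read 0 in any animal.

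**Figure D4:**
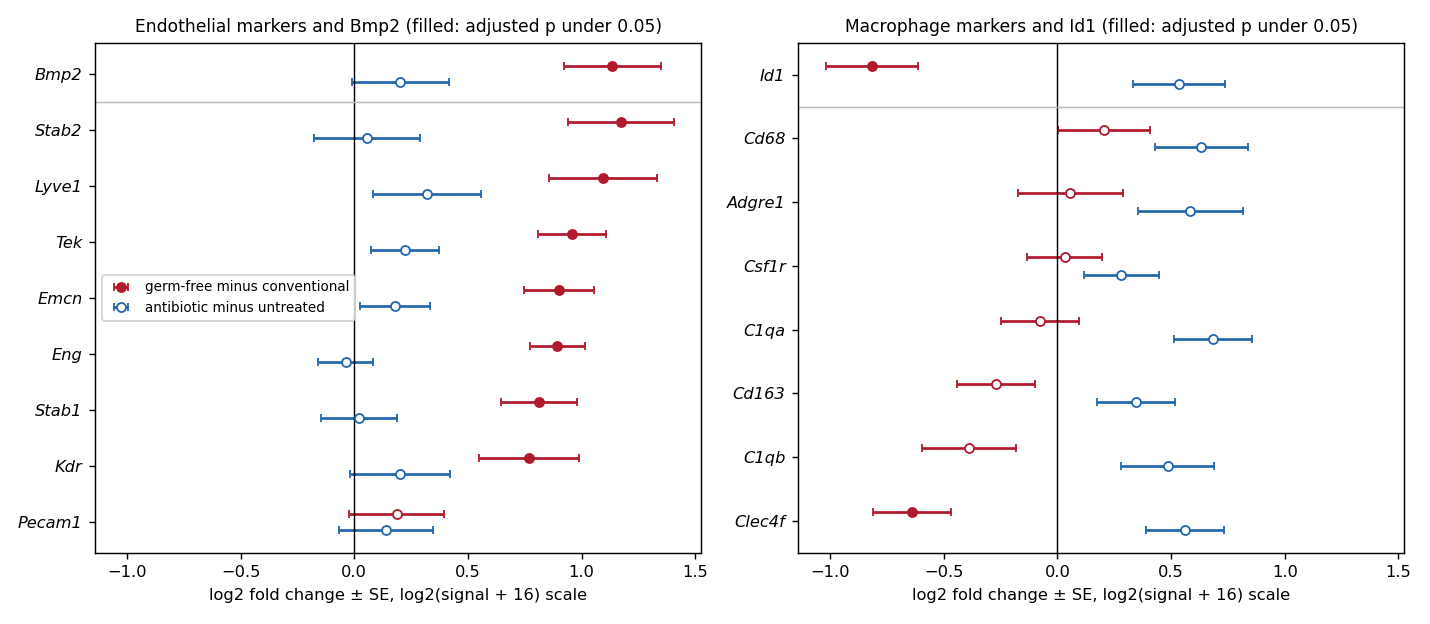
Log2 fold change ± SE on the log2(signal + 16) scale in germ-free minus conventional (red) and antibiotic minus untreated livers (blue), of endothelial markers below Bmp2 and of macrophage markers below Id1. Filled points passed at an adjusted p under 0.05: Bmp2 and 7 of 8 endothelial markers, and Id1 and Clec4f, all in germ-free livers. Over all genes 13.2% passed there.

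The genes most like Hamp over the 12 animals, after the mean of each strain was subtracted, were Rgs12 (Pearson r = 0.909), Zfp422 (0.850) and Fbln5 (0.848). Those most like Id1 were Eif3j (0.943), Krt18 (0.928) and Stip1 (0.925). These are the highest of 9300 genes, are given as a description, and rest on animals that share groups. Of them Krt18, a keratin of hepatocytes and bile ducts (germ-free log2 fold change -0.80, adjusted p = 0.00656, limma), and Stip1, a heat shock co-chaperone (-0.46, adjusted p = 0.0338), fell in germ-free livers.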

How the data were processed

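Liver RNA of 12 rats, 1 array each, was deposited by the authors as linear signal intensity, with 1 value for each probe set in each animal. The submitters' processing notes name MAS5, with no version given in the sources used here. The deposited intensity values had a trimmed mean (2% off each end) of 100.0 to 100.1 on every array and were not rescaled. Bright transcripts can approach saturation, which narrows differences, and no detection calls were used. Without the 57 control probe sets there were 31042, and 20826 had 1 gene symbol in the platform annotation, updated through the GRCr8 gene table.

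One probe set per gene, the brightest, was kept where its mean signal reached the median of 19.67, which left 9300 genes. Log2(signal + 16) was modelled in limma 3.58.1 (R 4.3.3) with lmFit and eBayes with a trend, 1 mean per group over all 12 arrays. P-values are two-sided and adjusted by Benjamini-Hochberg over all genes, with a threshold of 0.05. They set a difference between groups against the spread between animals within groups. Remaining probe sets come from a fit of all 31042. The fit was also run on simulated data, with normal noise drawn independently for each gene and array. These data hold no RNA quality differences or correlated genes, so the run does not test for either. Members and lists were chosen with earlier results of these data known. The text names all members, up to 6 genes per pathway list by smallest p in the germ-free and 3 in the antibiotic comparison, and the 3 genes most like Hamp and Id1. Other genes of the lists were chosen after their values were seen. Alternatives were other offsets and filters, quantile normalization, fits on 6 arrays, every probe set, the actin ratio as a covariate, and leaving out each animal.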

Additional observations from a re-analysis of the deposited data

Results flagged for a closer look

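Among the circuit genes and the pathway genes picked by smallest p, 7 had germ-free and antibiotic log2 fold changes that differed. They passed limma's test of the difference at an adjusted p under 0.05, as did 5.94% of all genes. The macrophage marker Clec4f, outside that set, passed too (-1.2, adjusted p = 0.0116). For Id1 the difference was -1.35 and for Aco1 -0.73 (adjusted p = 0.0142 and 0.0185). For Eng it was 0.93, for Id4 0.97, for Smad6 0.93, for Il6r 1.06 and for Slc46a1 0.95 (adjusted p = 0.00618, 0.00629, 0.00997, 0.0397 and 0.0351). The comparisons were made in different strains and experiments, which cannot be told apart from the treatments in these differences. The actin 3′ to 5′ ratio was also higher in every Sprague Dawley than in every Han Wistar animal. The Il6r and Slc46a1 differences each missed the threshold in 11 of 19 alternatives. With the actin 3′ to 5′ ratio as a covariate, the differences of Id1 (-1.44, adjusted p = 0.0537), Id4 (0.91, adjusted p = 0.0504), Smad6 (0.77, adjusted p = 0.0878) and Aco1 (-0.69, adjusted p = 0.0961) missed it too. That of Aco1 also did without germ-free animal 3 (-0.68, adjusted p = 0.0541). On the next brightest Smad6 probe set the difference was -0.22 (adjusted p = 0.719). Groups of 3 animals are too small for a test of single outlying animals.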

How the results depend on the processing

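No paired analysis was possible because the groups compared share no animal number. The germ-free count of 1226 genes was 606 with the actin ratio as a covariate and 654 to 1236 leaving out 1 animal, lowest without germ-free animal 3. The antibiotic count of 2 was 1 with an offset of 1, 4 with no filter, 0 with the 75th percentile filter, 4 over every probe set and 0 to 10 leaving out 1 animal. The count for the difference, 552, was 230 with the actin ratio and 296 to 600 leaving out 1 animal. Of the 8 genes of the circuit, 2 passed in germ-free livers, against 1 under the 75th percentile filter, where Id1 was not tested, 1 with the actin ratio and 1 to 3 leaving out 1 animal. The difference passed for 1 of them, against 0 under either of these settings and 1 to 2 leaving out 1 animal. Bmp2 passed in germ-free livers in all 20 alternatives (log2 0.79 to 1.32).

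Values that did not pass changed sign as follows, leaving out 1 animal. In the antibiotic comparison Hamp ran from -0.12 to 0.18, Bmp2 from -0.0108 to 0.38, Bmp6 from -0.0233 to 0.11, Hfe from -0.17 to 0.0379 and Tfrc from -0.18 to 0.60. In the germ-free comparison Tfr2 ran from -0.0470 to 0.10, Lcn2 from -0.79 to 0.28 and Jak2 from -0.28 to 0.0542. In the difference Hamp ran from -0.0200 to 0.28, Bmp6 from -0.0131 to 0.20 and Slc40a1 from -0.0837 to 0.0931. With the actin ratio Stat3 was 0.00491 and Socs3 -0.0342 in germ-free livers, and after quantile normalization Hp was -0.0169 in antibiotic-treated livers. The cause was not tested. In an alternative chosen after seeing the data, the BMP list had 5 calls leaving out any 1 animal, of which 4 were shared without conventional animal 7, 4 with the actin ratio, of which 3 were shared, and 3 under the 75th percentile filter. The iron list had 2 calls with the actin ratio, against 4, and the macrophage list 0 or 1 leaving out 1 animal.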
